A study of Arabidopsis thaliana with 8 samples.

Results

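The SAUR19 and SAUR63 clusters are tandem arrays of growth-promoting genes of Arabidopsis thaliana, and 10 of their genes were described here out of 27628 loci in the count tables. They were chosen by locus ID: 6 genes of the SAUR19 cluster on chromosome 5 (SAUR19 to SAUR24, AT5G18010 to AT5G18080) and 4 genes of the SAUR63 cluster on chromosome 1 (SAUR63 to SAUR66, AT1G29440 to AT1G29500). RNA was sequenced from whole seedlings of ecotype Col-0 in 4 groups: agb1 mutants carrying allele agb1-2, hy5 mutants, cry1 cry2 double mutants and wild type (WT), with 2 biological replicates and 1 library each. The labels name no hy5, cry1 or cry2 allele. Seeds of all 4 groups were kept at 4 degrees for 3 days, given white light for 12 h and grown for 4.5 days in blue light, with 1% sucrose in the medium. The design asks which genes are regulated by the cryptochrome blue-light receptors, by the light-signalling transcription factor HY5 and by AGB1, the heterotrimeric G protein beta subunit.

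SAUR stands for small auxin up RNA: these genes encode small proteins, and many of their short-lived transcripts accumulate soon after auxin is applied. SAUR19 and its close copies bind and inhibit phosphatases of the PP2C-D group, which otherwise switch off the plasma membrane proton pumps (H+-ATPases), so that the cell wall is acidified and cells of the hypocotyl elongate. SAUR63 and its copies promote elongation of hypocotyls, petals and stamen filaments. Blue light seen by cryptochromes, and HY5 downstream of them, hold back hypocotyl elongation in the seedling.

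In the TAIR10.1 annotation the SAUR19 cluster spanned chr5:5962773-5984308 (21.5 kb) and the SAUR63 members chr1:10304507-10321978 (17.5 kb). Every member has its coding sequence in 1 uninterrupted segment. The copies are alike enough to matter for counting: pairwise coding identity within the SAUR19 cluster ran from 87.7% to 95.2% (median 91.2% of 15 pairs), within the SAUR63 members from 77.1% to 84.98% (median 80.1% of 6 pairs), and between the clusters from 39.0% to 43.2% (24 pairs). The same 120-base coding stretch of the 6 SAUR19-cluster genes is shown to let the copies be compared. It is written 5′ to 3′ on the coding strand, and capitals mark bases that differ from the commonest base at that position, or, where bases tied, from the base met first in the order shown.
SAUR19 (chr5:5963114-5963233, minus strand): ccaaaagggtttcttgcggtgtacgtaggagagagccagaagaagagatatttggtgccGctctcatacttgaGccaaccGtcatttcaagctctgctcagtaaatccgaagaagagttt
SAUR20 (chr5:5966389-5966508, minus strand): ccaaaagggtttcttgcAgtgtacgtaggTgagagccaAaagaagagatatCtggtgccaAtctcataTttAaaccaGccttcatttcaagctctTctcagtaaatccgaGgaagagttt
SAUR21 (chr5:5968593-5968712, plus strand): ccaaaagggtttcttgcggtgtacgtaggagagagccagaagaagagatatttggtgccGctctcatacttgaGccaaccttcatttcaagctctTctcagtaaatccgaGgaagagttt
SAUR22 (chr5:5974772-5974891, minus strand): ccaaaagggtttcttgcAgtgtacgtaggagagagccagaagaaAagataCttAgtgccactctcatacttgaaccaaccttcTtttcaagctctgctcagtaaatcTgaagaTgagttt
SAUR23 (chr5:5976102-5976221, plus strand): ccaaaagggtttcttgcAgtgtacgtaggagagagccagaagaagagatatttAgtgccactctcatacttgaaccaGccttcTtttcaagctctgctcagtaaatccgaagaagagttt
SAUR24 (chr5:5983912-5984031, plus strand): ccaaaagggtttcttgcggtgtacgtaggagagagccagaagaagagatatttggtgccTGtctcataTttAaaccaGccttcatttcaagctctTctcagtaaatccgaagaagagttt

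In this stretch 101 of 120 positions (84.2%) were the same in all 6 copies. The corresponding stretch of the 4 SAUR63-cluster members, marked in the same way, shared 85 of 120 positions (70.8%).
SAUR63 (chr1:10304757-10304876, minus strand): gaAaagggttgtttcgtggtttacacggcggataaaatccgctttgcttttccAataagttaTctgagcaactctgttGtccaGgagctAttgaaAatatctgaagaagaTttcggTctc
SAUR64 (chr1:10306170-10306289, minus strand): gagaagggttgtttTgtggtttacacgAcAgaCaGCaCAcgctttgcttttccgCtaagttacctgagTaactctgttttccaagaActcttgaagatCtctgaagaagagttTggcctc
SAUR65 (chr1:10307795-10307914, minus strand): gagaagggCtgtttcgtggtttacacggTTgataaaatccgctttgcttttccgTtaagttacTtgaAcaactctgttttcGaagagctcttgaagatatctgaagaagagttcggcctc
SAUR66 (chr1:10321401-10321520, plus strand): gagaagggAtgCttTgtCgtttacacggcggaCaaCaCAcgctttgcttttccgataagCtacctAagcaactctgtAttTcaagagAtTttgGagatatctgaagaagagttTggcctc

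Over whole coding sequences, 67.4% of the 50-base windows of SAUR19 occurred in no other annotated coding sequence, as did 83.0% of those of SAUR21, 85.7% of SAUR24, 87.5% of SAUR63 and 91.1% of SAUR23. The other 5 members were unique in all such windows, and all 10 were unique in every 100-base window. The shared windows of SAUR63 were shared with SAUR67, a neighbour that is not a member, while those of the SAUR19 cluster were shared within the cluster. The sources used here give neither read length nor the handling of multi-mapping reads, so each cluster was also tested as 1 sum, which does not depend on how reads were shared out among its own members. AT1G29435, annotated on the opposite strand over SAUR63 and the end of SAUR64, held 2 to 9 reads per library, and the sources do not state whether counting used strand.

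The 250 bases before each gene start were searched on both strands for motifs of auxin and light signalling. CACATG, a variant of the sequence bound by phytochrome-interacting factors (PIFs), stood before 7 of the 10 members (SAUR19, SAUR21, SAUR22 and SAUR63 to SAUR66), against 11.1% of 27418 upstream regions of the same length and 24 of 68 other SAUR genes. Around a match the bases of SAUR19, SAUR21 and SAUR22 were near copies of each other, and so were those of SAUR63 to SAUR66. The 7 are therefore not independent occurrences. The regions of SAUR19 and SAUR63 overlap other annotated genes (AT5G02835 and AT1G29435). TGTCTC, the auxin response element, stood before SAUR20, SAUR22 and SAUR66, against 10.95% of all regions and 4 of 68 other SAUR genes. The matches of SAUR20 and SAUR22 also lie in near-identical sequence. CACGTG, the G-box bound by HY5 and PIFs, occurred before 0 of 10 members and in 6.48% of all regions. CGTGTG and CGTGCG, brassinosteroid response elements, likewise occurred before 0 members and in 5.37% and 1.57% of regions. These motifs do not overlap each other at the matches shown. The upstream regions of SAUR22 and SAUR66 are printed because they alone among the members held both of the motifs found, in capitals here on the strand of the gene (GAGACA and CATGTG are the same motifs read on the other strand).
SAUR22 (chr5:5975088-5975337, minus strand): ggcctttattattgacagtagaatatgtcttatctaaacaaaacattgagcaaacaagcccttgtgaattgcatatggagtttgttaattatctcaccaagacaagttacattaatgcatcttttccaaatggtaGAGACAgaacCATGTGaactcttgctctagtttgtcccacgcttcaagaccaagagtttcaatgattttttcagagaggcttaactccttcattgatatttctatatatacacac
SAUR66 (chr1:10320761-10321010, plus strand): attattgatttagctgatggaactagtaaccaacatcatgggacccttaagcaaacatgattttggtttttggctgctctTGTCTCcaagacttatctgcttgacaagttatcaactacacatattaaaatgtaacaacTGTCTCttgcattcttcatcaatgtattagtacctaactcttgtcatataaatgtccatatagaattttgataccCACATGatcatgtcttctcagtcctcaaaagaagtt

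The libraries held 15651218 to 23098347 counted reads, each member 54 to 425 reads per library, and all 10 members were among the 20695 loci with enough reads to test. CRY2 had 3 and 4 reads in the double mutant, against 5006 and 4256 reads in WT, and CRY1 averaged 80.2 ± 3.11 CPM (counts per 1000000 reads of TMM-adjusted library size) in cry1 cry2 and 199.98 ± 3.48 CPM in WT (SD, n = 2 each). AGB1 averaged 43.8 ± 0.81 CPM in agb1 and 69.7 ± 7.68 CPM in WT, and HY5 averaged 14.4 ± 0.70 CPM in hy5 and 15.4 ± 0.66 CPM in WT, so transcript level does not check the hy5 label. With 2 libraries a group, an exact permutation test cannot give a p below 0.333, so p-values come from edgeR's quasi-likelihood test fitted across all loci with Benjamini-Hochberg adjustment, and they measure the spread between these libraries.

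Both clusters had a lower transcript level in agb1 than in WT, and a higher one in hy5 and in cry1 cry2. The SAUR63 sum was highest in hy5; for the SAUR19 sum the order of hy5 and cry1 cry2 depended on the scaling. The SAUR19 cluster sum was 51.9 and 50.3 CPM in agb1, 95.9 and 100.4 CPM in hy5, 88.2 and 88.7 CPM in cry1 cry2, and 60.6 and 70.8 CPM in WT. The SAUR63 sum over its 4 members was 19.9 and 19.5 CPM in agb1, 56.7 and 59.1 CPM in hy5, 42.3 and 43.0 CPM in cry1 cry2, and 29.8 and 29.1 CPM in WT. On this TMM scale the genotypes did not overlap each other in either sum. In the RPKM that the authors deposited, the SAUR19 sum averaged 357 ± 12.1 in hy5 and 364 ± 4.70 in cry1 cry2 (SD, n = 2 each), and these libraries overlapped. Across the 8 libraries the log2 values of the sums had a Pearson r of 0.978, a description of libraries that share depth and scaling.

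**Figure D1:**
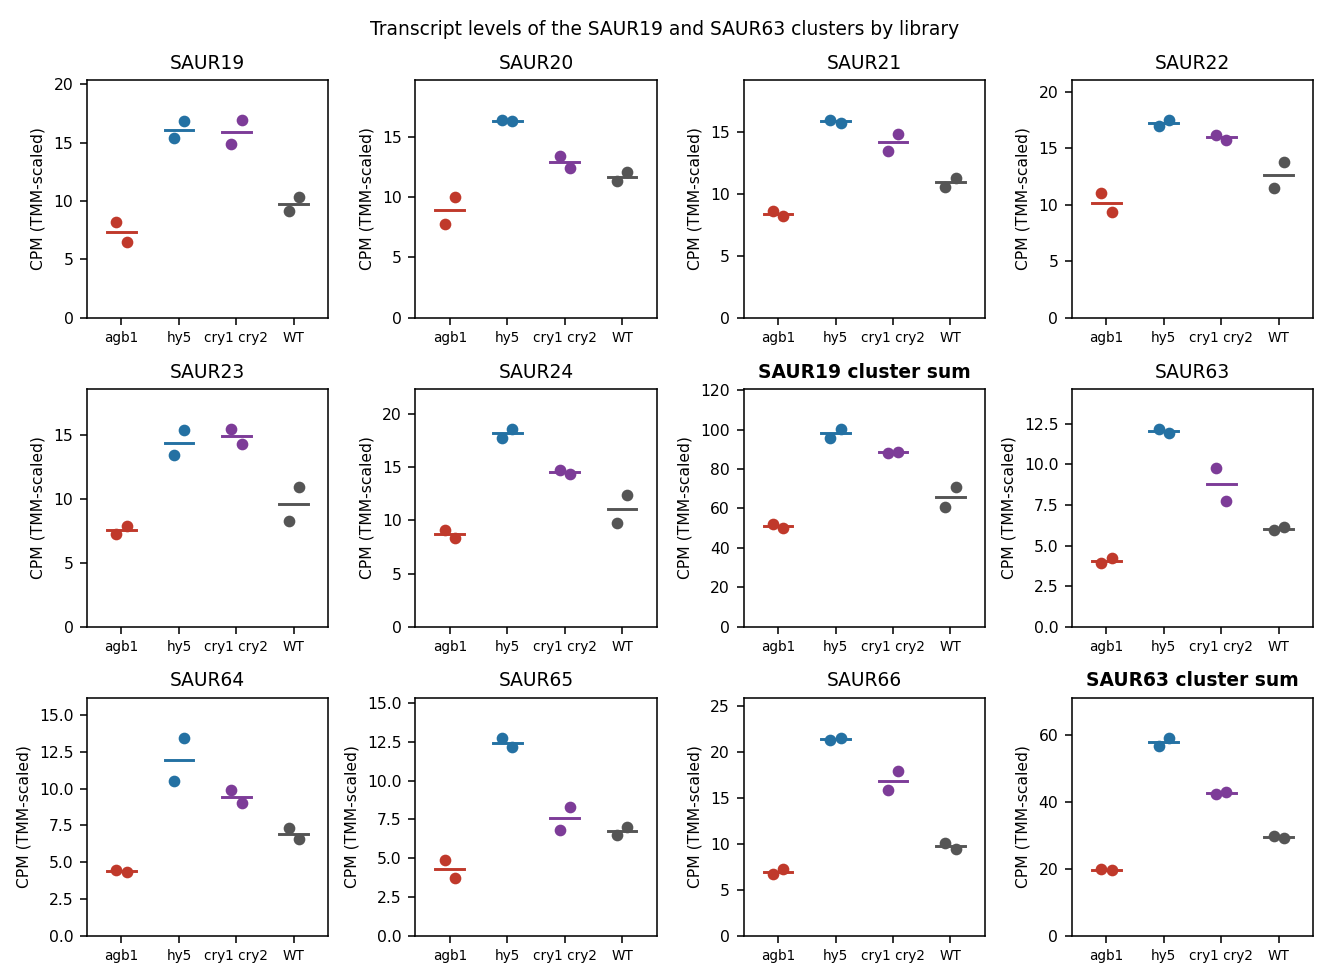
CPM (TMM-scaled, linear axis from 0) of each member and of both cluster sums, 2 libraries per genotype as points and their mean as a line. The SAUR19 and SAUR63 sums average 51.1 and 19.7 CPM in agb1, 98.1 and 57.9 CPM in hy5, 88.5 and 42.7 CPM in cry1 cry2, and 65.7 and 29.5 CPM in WT.

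Against WT, the SAUR19 sum fell in agb1 by 0.36 ± 0.07 on the log2 scale (SE; adjusted p = 2.64e-04, edgeR), and the SAUR63 sum fell by 0.58 ± 0.08 (adjusted p = 1.73e-06). In hy5 the SAUR19 sum rose by 0.58 ± 0.06 (adjusted p = 1.19e-08) and the SAUR63 sum by 0.97 ± 0.07 (adjusted p = 6.22e-13), a 1.96-fold level. In cry1 cry2 the rises were 0.43 ± 0.06 (adjusted p = 1.49e-06) and 0.53 ± 0.07 (adjusted p = 1.30e-07). In hy5 the 95% intervals of the SAUR19 sum (0.45 to 0.71) and of the SAUR63 sum (0.84 to 1.11) did not overlap, whereas in agb1 (-0.50 to -0.22 and -0.74 to -0.42) and in cry1 cry2 (0.30 to 0.56 and 0.39 to 0.67) they did; the difference between the clusters itself was not tested.

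The seedlings were sampled whole, and in such bulk samples fewer cells of a type and less RNA per cell cannot be told apart. The summed level of 7 root markers was also lowest in agb1, and it was higher in hy5 and cry1 cry2 than in WT: it was 2994 to 3014 CPM in agb1, 6864 to 7017 CPM in hy5, 7183 to 7320 CPM in cry1 cry2, and 4360 to 4366 CPM in WT. None of the 7 was at 0 in any library, and 5 of 7 fell in agb1, 5 rose and 2 fell in hy5, and 4 of 7 rose in cry1 cry2, beside 8.41% of all tested loci that fell in agb1, and 22.6% and 25.6% that rose in hy5 and cry1 cry2. Most reads of that sum came from PYK10, a beta-glucosidase of root endoplasmic reticulum bodies (2861 ± 16.6 CPM in agb1, 6581 ± 94.2 CPM in hy5, 6886 ± 73.4 CPM in cry1 cry2, 4154 ± 18.2 CPM in WT). The single markers did not all follow the sum: the root hair genes RHD2 and COBL9 were lowest in hy5, where they fell by 1.41 ± 0.12 and 1.03 ± 0.13 on the log2 scale (adjusted p = 5.77e-11 and 2.21e-07, edgeR). Green tissue markers, 6 photosynthesis genes also with reads in every library, summed to 12702 to 12710 CPM in agb1, 12865 to 12991 CPM in hy5, 2385 to 2397 CPM in cry1 cry2, and 9660 to 9958 CPM in WT. The part of root or green tissue in the change of the clusters was not tested.

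All 6 genes of the SAUR19 cluster had lower levels in both agb1 libraries than in both WT libraries. SAUR19, the best studied of the group, had 8.18 and 6.52 CPM in agb1, 15.4 and 16.9 CPM in hy5, 14.9 and 16.9 CPM in cry1 cry2, and 9.11 and 10.3 CPM in WT. SAUR20 had 7.78 and 10.02 CPM in agb1, 16.4 and 16.3 CPM in hy5, 13.5 and 12.4 CPM in cry1 cry2, and 11.3 and 12.1 CPM in WT. SAUR21 had 8.57 and 8.17 CPM in agb1, 15.9 and 15.7 CPM in hy5, 13.4 and 14.8 CPM in cry1 cry2, and 10.5 and 11.3 CPM in WT. For these 3 copies agb1 lay below WT, and hy5 and cry1 cry2 above it, without overlap. Of all tested loci, 27.8% lay wholly below WT in agb1, and 35.3% and 37.6% wholly above it in hy5 and cry1 cry2. For SAUR19 hy5 and cry1 cry2 overlapped each other. SAUR22 had 11 and 9.34 CPM in agb1, 16.9 and 17.5 CPM in hy5, 16.2 and 15.8 CPM in cry1 cry2, and 11.5 and 13.7 CPM in WT. SAUR23 had 7.22 and 7.89 CPM in agb1, 13.4 and 15.4 CPM in hy5, 15.5 and 14.3 CPM in cry1 cry2, and 8.27 and 10.9 CPM in WT. SAUR24 had 9.14 and 8.31 CPM in agb1, 17.8 and 18.6 CPM in hy5, 14.8 and 14.4 CPM in cry1 cry2, and 9.78 and 12.4 CPM in WT. In these 3 the agb1 and WT libraries did not overlap either, but the WT replicates stood further apart, with replicate 2 above replicate 1.

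Each SAUR63-cluster member had its lowest mean in agb1 and its highest in hy5, over a wider fold range than the SAUR19 cluster. In the SAUR19 cluster 5 of 6 genes had a higher value in hy5 than in cry1 cry2. SAUR23 had the reverse, with means of 14.4 CPM in hy5 and 14.9 CPM in cry1 cry2. For several of these genes that order depended on the scaling, as it did for the sum. SAUR63 had 3.89 and 4.26 CPM in agb1, 12.2 and 12.0 CPM in hy5, 9.80 and 7.76 CPM in cry1 cry2, and 5.94 and 6.13 CPM in WT. SAUR64 had 4.46 and 4.32 CPM in agb1, 10.5 and 13.5 CPM in hy5, 9.91 and 9.01 CPM in cry1 cry2, and 7.33 and 6.54 CPM in WT. In both genes each mutant stood clear of WT, as did 27.8% (lower in agb1), 35.3% (higher in hy5) and 37.6% (higher in cry1 cry2) of all tested loci. SAUR65 had 4.91 and 3.71 CPM in agb1, 12.8 and 12.2 CPM in hy5, 6.81 and 8.33 CPM in cry1 cry2, and 6.48 and 7.001 CPM in WT. SAUR66 had 6.66 and 7.21 CPM in agb1, 21.2 and 21.5 CPM in hy5, 15.8 and 17.9 CPM in cry1 cry2, and 10.1 and 9.45 CPM in WT. SAUR65 was the member whose cry1 cry2 and WT libraries overlapped, and SAUR66 held the most reads of the 4 in every library.

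In agb1 against WT, 7 of the 10 members fell at an adjusted p under 0.05 (edgeR), where 17.2% of all tested loci were called, 8.41% lower and 8.76% higher. Their median log2 fold change was -0.40, beside a median of -0.003 over all loci. The 4 SAUR63-cluster members fell by 0.57 ± 0.17 (SAUR63), 0.66 ± 0.17 (SAUR64), 0.63 ± 0.17 (SAUR65) and 0.50 ± 0.13 (SAUR66), with adjusted p from 0.00461 to 0.0155. SAUR19, SAUR20 and SAUR21 fell by 0.39 ± 0.14, 0.41 ± 0.12 and 0.38 ± 0.12 (adjusted p = 0.0474, 0.0203 and 0.0255). SAUR22, SAUR23 and SAUR24 had values of -0.30 ± 0.12, -0.34 ± 0.14 and -0.33 ± 0.13 and were not called (adjusted p = 0.0801, 0.101 and 0.0670). At an unadjusted p under 0.05 all 10 passed, and for all 10 both agb1 libraries lay below both WT libraries, as they did for 27.8% of tested loci.

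The calls of single members in agb1 rested on few libraries, while those of the sums held. The size of the fall of the SAUR19 sum still depended on the WT library kept. It was -0.47 without WT replicate 1 and -0.24 without WT replicate 2. Fewer of the 10 members were called with any WT or agb1 library left out, and DESeq2 called 2. Of all loci DESeq2 called 1000 lower, beside 1740 by edgeR. SAUR19, at -0.39 with all libraries, was not called without WT replicate 1 (-0.48, adjusted p = 0.0558) or hy5 replicate 2 (-0.38, 0.0529), where its value was as large or nearly so, nor without WT replicate 2 (-0.30, 0.285) or agb1 replicate 2 (-0.24, 0.385), where it was smaller. SAUR20, at -0.41, was not called without WT replicate 1 (-0.45, 0.0518), WT replicate 2 (-0.36, 0.127) or agb1 replicate 1 (-0.22, 0.420). SAUR21, at -0.38, was not called without WT replicate 1 (-0.43, 0.0524), WT replicate 2 (-0.33, 0.1502), agb1 replicate 1 (-0.42, 0.0869) or agb1 replicate 2 (-0.35, 0.141). The values of SAUR19 without agb1 replicate 2 and of SAUR20 without agb1 replicate 1 moved by more than 1.5 times, and the others of these 3 genes by less. In the SAUR63 cluster the values without a call stayed within 1.5 times: SAUR63 without WT replicate 1 (-0.59, 0.0577), WT replicate 2 (-0.55, 0.0766) or agb1 replicate 1 (-0.50, 0.144), SAUR64 without WT replicate 1 (-0.57, 0.0697), SAUR65 without WT replicate 2 (-0.57, 0.0622) or agb1 replicate 2 (-0.45, 0.134), and SAUR66 without WT replicate 1 (-0.45, 0.0577) or agb1 replicate 1 (-0.44, 0.0793). SAUR22, SAUR23 and SAUR24 moved with the WT library kept. Without WT replicate 1 they were called at -0.43, -0.54 and -0.50 (adjusted p = 0.0385, 0.0203 and 0.0155), and without WT replicate 2 their values were -0.17, -0.13 and -0.16 (adjusted p = 0.505, 0.688 and 0.563). SAUR22 also moved to -0.19 without agb1 replicate 2 (adjusted p = 0.450). The log2 fold change stayed below 0 for every member under every alternative run.

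**Figure D2:**
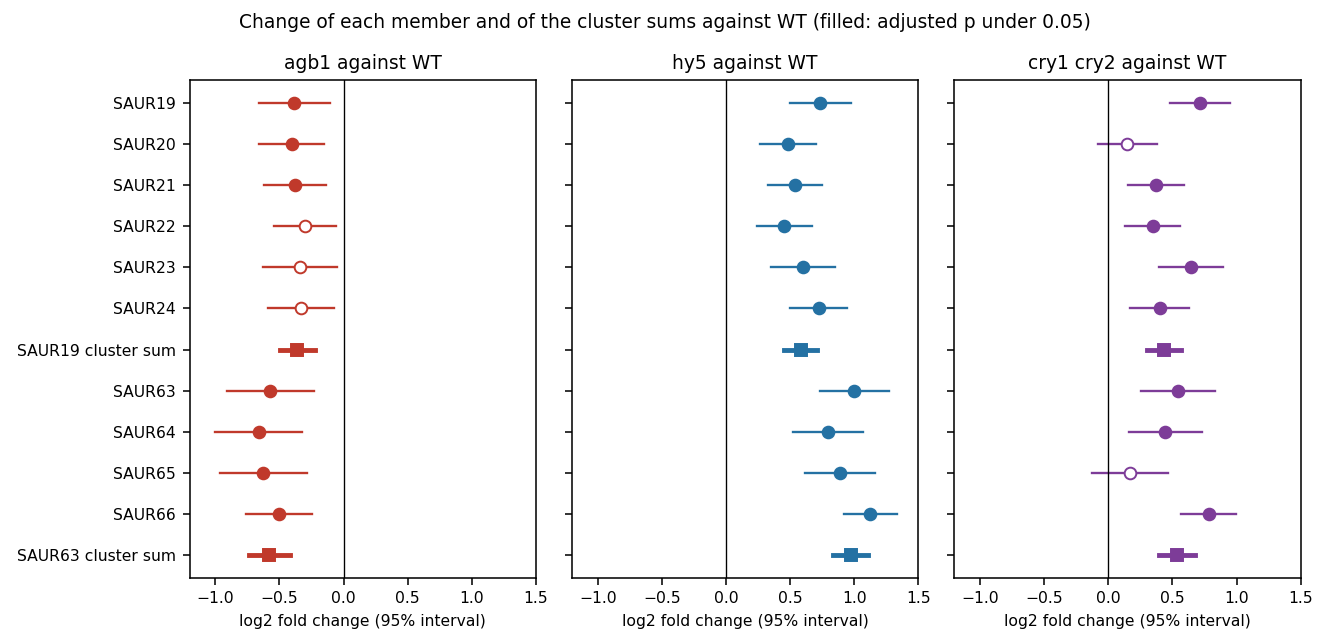
Log2 fold change against WT (x axis) of each member (circles) and each cluster sum (squares) in agb1, hy5 and cry1 cry2, with 95% intervals from the fit over all loci; filled symbols had an adjusted p under 0.05. All 10 members lie left of 0 in agb1 and right of 0 in hy5 and cry1 cry2, and the hy5 values of the SAUR63-cluster members (0.79 to 1.13) lie to the right of those of the SAUR19 cluster (0.45 to 0.74).

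In hy5 against WT all 10 members rose (42.9% of tested loci were called, 22.6% higher and 20.2% lower), with a median log2 fold change of 0.73 beside -0.001 over all loci. SAUR66 had the largest change of the 10, 1.13 ± 0.10 (2.18-fold, adjusted p = 1.97e-10, edgeR), followed by SAUR63 at 1.00 ± 0.13 (adjusted p = 3.66e-07), SAUR65 at 0.89 ± 0.13 (adjusted p = 2.69e-06) and SAUR64 at 0.79 ± 0.13 (adjusted p = 1.61e-05). In the SAUR19 cluster the values ran from 0.45 ± 0.10 for SAUR22 (adjusted p = 7.65e-04) through 0.48 ± 0.11 for SAUR20, 0.54 ± 0.10 for SAUR21 and 0.60 ± 0.12 for SAUR23 to 0.72 ± 0.11 for SAUR24 and 0.74 ± 0.11 for SAUR19 (adjusted p = 5.24e-06). The 10 calls held in every alternative run.

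In cry1 cry2 against WT 8 of the 10 members rose (51.4% of tested loci were called, 25.6% higher and 25.8% lower), with a median of 0.42 beside 0.001 over all loci. The values were largest for SAUR66 at 0.78 ± 0.10 (1.72-fold, adjusted p = 2.44e-07, edgeR), SAUR19 at 0.71 ± 0.12 (adjusted p = 5.36e-06) and SAUR23 at 0.65 ± 0.12 (adjusted p = 5.21e-05). SAUR63, SAUR64, SAUR24, SAUR21 and SAUR22 rose by 0.54 ± 0.14, 0.44 ± 0.14, 0.40 ± 0.11, 0.37 ± 0.11 and 0.34 ± 0.11 (adjusted p from 0.00173 to 0.00862). SAUR20 at 0.15 ± 0.11 (95% interval -0.08 to 0.38, adjusted p = 0.291) and SAUR65 at 0.17 ± 0.14 (-0.13 to 0.47, adjusted p = 0.346) were not called. Without WT replicate 1, SAUR21, SAUR22 and SAUR24 were not called, at 0.32, 0.22 and 0.23. SAUR21 was also not called without cry1 cry2 replicate 2 (0.30, adjusted p = 0.0685), nor SAUR63 without cry1 cry2 replicate 1 (0.36, 0.0947), nor SAUR64 without WT replicate 2 (0.37, 0.0786) or cry1 cry2 replicate 1 (0.37, 0.0832). DESeq2 called 5 of the 10 higher, and 3808 of all loci, beside 5292 of all loci by edgeR. These comparisons and the others against WT share their 2 WT libraries.

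The mutants were also set against each other, which uses no WT library. In agb1 against hy5 all 10 members were lower (49.9% of tested loci were called, 25.7% lower and 24.2% higher), with a median of -1.09 and a range of -1.63 (SAUR66) to -0.75 (SAUR22). The SAUR63 sum was lower in agb1 than in hy5 by 1.55 ± 0.07 on the log2 scale, that is 0.34 of the hy5 level (adjusted p = 6.78e-17, edgeR), and the SAUR19 sum by 0.94 ± 0.07, 0.52 of the hy5 level (adjusted p = 9.31e-13). In agb1 against cry1 cry2 all 10 were lower as well (57.9% of tested loci were called, 29.1% lower and 28.8% higher), from -1.28 (SAUR66) to -0.55 (SAUR20), and the sums differed by -1.11 ± 0.08 for SAUR63 (adjusted p = 1.50e-13) and -0.79 ± 0.07 for SAUR19 (adjusted p = 2.43e-11). All 20 of these member calls held in every alternative run.

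Between hy5 and cry1 cry2 the SAUR63 sum passed the threshold and the SAUR19 sum did not; the difference between the clusters was not tested. The SAUR63 sum was higher in hy5 by 0.44 ± 0.06 (adjusted p = 1.51e-06, edgeR; 0.27 with library sizes alone), and its 4 members were called, with SAUR65 at 0.72 ± 0.13 (adjusted p = 5.33e-05) and SAUR63, SAUR64 and SAUR66 at 0.46 ± 0.13, 0.35 ± 0.13 and 0.34 ± 0.09. The SAUR19 sum had a value of 0.15 ± 0.06 (95% interval 0.02 to 0.28, adjusted p = 0.0536), and of its 6 genes SAUR20 at 0.34 ± 0.11 (adjusted p = 0.0124) and SAUR24 at 0.32 ± 0.11 (adjusted p = 0.0149) were called. Thus 6 of 10 members were called higher in hy5, where 43.7% of tested loci were called, 23.2% higher and 20.6% lower. SAUR19 at 0.02 ± 0.11 (-0.20 to 0.24), SAUR21 at 0.16 ± 0.10 (-0.05 to 0.37), SAUR22 at 0.11 ± 0.10 (-0.10 to 0.32) and SAUR23 at -0.05 ± 0.12 (-0.28 to 0.19) were not. The count fell without hy5 replicate 2 or cry1 cry2 replicate 2. With DESeq2 or with library sizes alone it fell to 1, where 3783 and 3160 of all loci were called higher, beside 4792 in the main fit. A count this small is not read as a result about the members. Library sizes alone shift the median of all loci in this comparison by -0.18 and turn the SAUR19 sum to -0.03 (adjusted p = 0.770, edgeR). Without hy5 replicate 2 or cry1 cry2 replicate 2, SAUR20 had 0.34 and 0.28 (adjusted p = 0.0505 and 0.0994), SAUR24 had 0.28 and 0.30 (0.1015 and 0.0701), and SAUR64 had 0.15 and 0.28 (0.490 and 0.171). SAUR63 was not called without cry1 cry2 replicate 2 (0.30, adjusted p = 0.123), nor SAUR66 without cry1 cry2 replicate 1 (0.27, 0.0742). The SAUR19 sum passed without WT replicate 1 (0.151, adjusted p = 0.0374) or WT replicate 2 (0.151, adjusted p = 0.0377).

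Levels of different genes were compared per length, in the RPKM that the authors deposited. In WT the 6 SAUR19-cluster genes had mean RPKM of 45.9 (SAUR22), 42.0 (SAUR20), 40.4 (SAUR21), 40.2 (SAUR24), 35.3 (SAUR19) and 34.8 (SAUR23), and neighbours in that order overlapped in their 2 libraries. SAUR66 followed at 23.6 RPKM, SAUR64 at 16.05, SAUR63 at 13.98 and SAUR65 at 13.3, and of these neighbours SAUR63 and SAUR65 overlapped. In hy5 the gap between the clusters closed at 1 point: SAUR66 averaged 51.7 RPKM (51.3 and 52.1), beside 52.3 RPKM for SAUR23 (48.7 and 55.9), and the 2 genes overlapped. In agb1 SAUR66 averaged 15.97 RPKM and the lowest SAUR19-cluster gene, SAUR19, 25.5 RPKM, without overlap. In cry1 cry2 SAUR66 averaged 46.1 RPKM, below SAUR20 at 52.6 RPKM, also without overlap.

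Shares of the cluster's reads were compared within libraries. In the SAUR19 cluster mean shares over the 2 libraries of a genotype ran from 14.4% to 19.9%. In cry1 cry2 SAUR19 held 16.9% and 19.1% of the reads and SAUR23 17.6% and 16.2%, above their WT shares of 15.04% and 14.6% for SAUR19 and 13.6% and 15.5% for SAUR23. SAUR20 held 15.2% and 13.99% in cry1 cry2, below 18.7% and 17.0% in WT, and SAUR22 held 18.4% and 17.8%, below 19.03% and 19.4% in WT. In hy5 the shares of SAUR19 (16.02% and 16.8%) and SAUR24 (18.5% and 18.6%, against 16.2% and 17.5% in WT) lay above those of WT, and those of SAUR22 (17.7% and 17.4%) below. SAUR66 held 35.2 ± 2.51% of the SAUR63-cluster reads in agb1, 36.9 ± 0.72% in hy5, 39.5 ± 2.95% in cry1 cry2 and 33.1 ± 0.97% in WT (SD, n = 2 each). SAUR65 held 21.8 ± 3.98% in agb1, 21.6 ± 1.40% in hy5, 17.7 ± 2.34% in cry1 cry2 and 22.9 ± 1.65% in WT. The shares of SAUR66 in hy5 and in cry1 cry2 lay above WT, those of SAUR65 in cry1 cry2 and of SAUR64 in agb1 below WT, without overlap, in 2 libraries each. The other shares overlapped those of WT. Shares were not tested, and with 2 libraries a group such a separation cannot give a p below 0.333 in an exact permutation test.

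**Figure D3:**
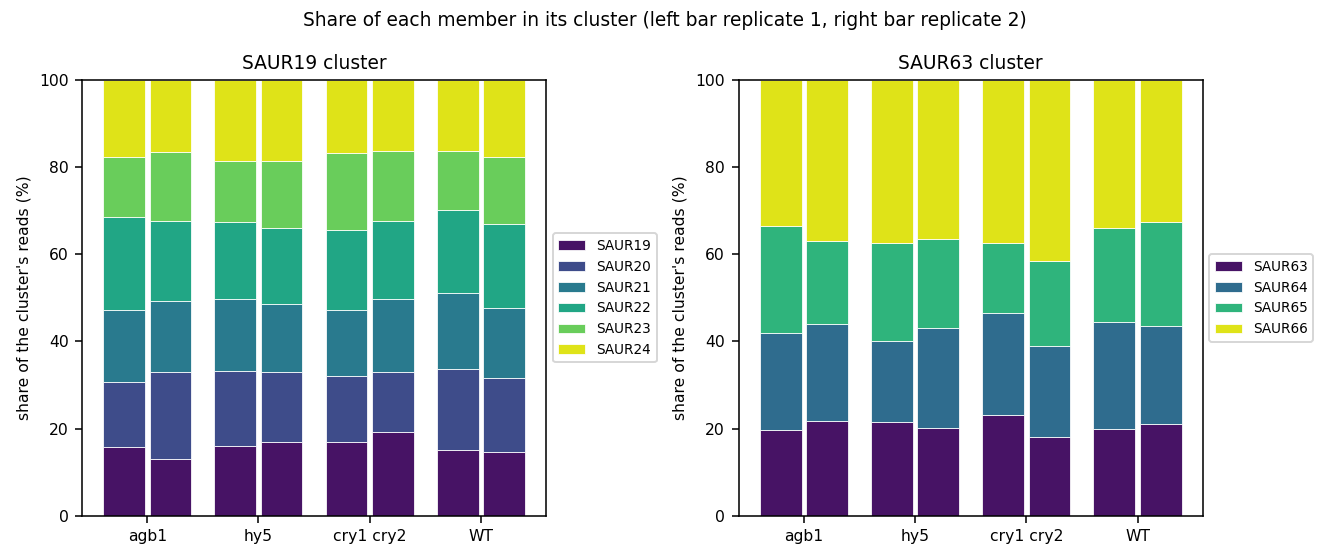
Share of each member in the reads of its cluster (y axis, percent; stacked bars sum to 100), 1 bar per library, with agb1, hy5, cry1 cry2 and WT from left to right. The SAUR19 cluster is divided nearly evenly among its 6 genes, and SAUR66 holds the largest share of the SAUR63 members in every library.

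The chromosome 1 array holds 4 more SAUR genes that are not members. SAUR62 fell in agb1 by 0.93 ± 0.18 (adjusted p = 2.39e-04, edgeR) and rose in hy5 by 1.07 ± 0.13 (adjusted p = 9.99e-08), with 0.22 ± 0.15 in cry1 cry2 (adjusted p = 0.218). SAUR67, the closest relative of SAUR63 at 89.4% coding identity, fell in agb1 by 0.52 ± 0.15 (adjusted p = 0.0170) and rose in hy5 by 1.06 ± 0.12 and in cry1 cry2 by 0.77 ± 0.13 (adjusted p = 3.63e-08 and 7.90e-06). SAUR68 rose in hy5 by 1.23 ± 0.25 and in cry1 cry2 by 1.36 ± 0.25 (adjusted p = 2.41e-04 and 3.76e-05), with -0.18 ± 0.32 in agb1 (adjusted p = 0.782). Outside the members, the SAUR gene closest to SAUR64 was SAUR61, at 84.4%. SAUR61 had values of -0.89 ± 0.36 in agb1 and 0.40 ± 0.29 in hy5 (adjusted p = 0.0918 and 0.283, edgeR). It had 0.44 and 0.85 CPM in cry1 cry2, against 1.79 and 1.53 CPM in WT, and fell there by 1.36 ± 0.38 (adjusted p = 0.00331). With these 4 added, the summed array changed by the same sign and call as the 4 members in all 6 comparisons.

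Genes of other families lie between the members and were measured too. On chromosome 5, 3 such loci were tested (AT5G18040, AT5G18065 and AT5G18070). None was called in any mutant against WT by edgeR, by DESeq2 or at an unadjusted p under 0.05. In hy5 their log2 values were 0.24 ± 0.16, 0.11 ± 0.43 and -0.20 ± 0.11. On chromosome 1, AT1G29465 rose in hy5 by 0.63 ± 0.19 (adjusted p = 0.00904) and AT1G29470 fell by 0.20 ± 0.05 (adjusted p = 0.00185), and DESeq2 called 1 of the 2. In agb1 and cry1 cry2 neither was called, by any of these 3 criteria.

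Of the 68 SAUR genes outside the members, 56 had enough reads to test: 11 fell and 4 rose in agb1, 22 rose and 4 fell in hy5, and 26 rose and 10 fell in cry1 cry2 (edgeR, adjusted p under 0.05). Over all tested loci, 8.41% fell and 8.76% rose in agb1, 22.6% rose and 20.2% fell in hy5, and 25.6% rose and 25.8% fell in cry1 cry2. Their median log2 fold changes were -0.18, 0.36 and 0.41 in agb1, hy5 and cry1 cry2, beside -0.40, 0.73 and 0.42 for the members. With library sizes alone the counts were 13 and 3, 22 and 4, and 31 and 8. In agb1 the genes of lowest p were SAUR72, which rose by 1.37 ± 0.14, SAUR55, which fell by 0.63 ± 0.07, SAUR6, which rose by 0.51 ± 0.09, and SAUR50, which fell by 0.56 ± 0.09 (adjusted p at most 5.08e-05). In hy5 they were SAUR35 at 2.09 ± 0.22 and SAUR30 at 0.99 ± 0.11, then SAUR67 and SAUR62. In cry1 cry2 they were SAUR16 at -1.28 ± 0.10, SAUR6 at -1.26 ± 0.10 and SAUR14 at -1.42 ± 0.12, all of which fell, and SAUR30 at 1.15 ± 0.10. SAUR27 was the nearest SAUR gene outside the members to each SAUR19-cluster copy, at 78.5% to 79.9% coding identity. It rose in hy5 by 0.77 ± 0.19 and in cry1 cry2 by 1.03 ± 0.18 (adjusted p = 0.00123 and 1.71e-05, edgeR), with -0.34 ± 0.22 in agb1 (adjusted p = 0.356). SAUR75 was the nearest to SAUR65 outside the members, at 78.9%. It was not called against WT, at -0.66 ± 0.32, 0.58 ± 0.26 and 0.08 ± 0.28 in agb1, hy5 and cry1 cry2 (adjusted p = 0.181, 0.0760 and 0.832, edgeR).

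**Figure D4:**
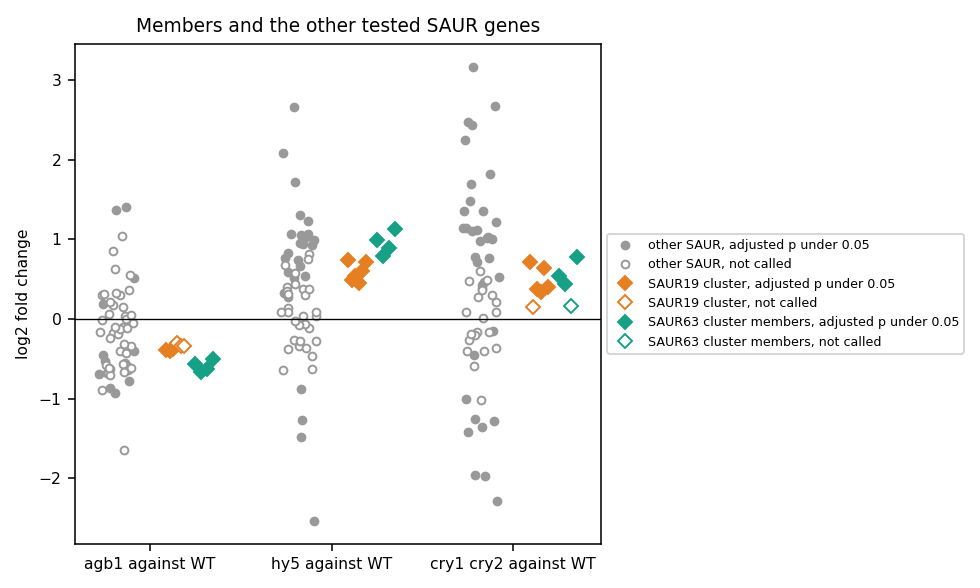
Log2 fold change against WT (y axis) of the 56 other tested SAUR genes (grey), the 6 SAUR19-cluster genes (orange) and the 4 SAUR63-cluster members (green) in each mutant; filled symbols had an adjusted p under 0.05. The members of each cluster lie on 1 side of 0 in each mutant (at most -0.30 in agb1, at least 0.45 in hy5 and 0.15 in cry1 cry2). The other SAUR genes as a set lie on both sides, but some share the members' pattern. SAUR1, SAUR36, SAUR50, SAUR55 and SAUR67 were called lower in agb1 and higher in hy5 and cry1 cry2. Further genes lie on the members' side in each mutant without being called in all of them. Among them are SAUR11, SAUR13, SAUR32, SAUR35, SAUR62, SAUR68 and SAUR26 to SAUR29. Of SAUR26 to SAUR29 only SAUR29 was called in agb1, and it was not called in cry1 cry2.

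The PP2C-D phosphatases, the targets of SAUR19-type proteins, were all measured; of all tested loci 8.76%, 22.6% and 25.6% rose in agb1, hy5 and cry1 cry2. None of the 9 was called in agb1 by edgeR or DESeq2, or at an unadjusted p under 0.05, and PP2C-D1 there had -0.10 ± 0.07. In hy5, 3 rose: PP2C-D1 by 0.50 ± 0.06, PP2C-D5 by 0.45 ± 0.06 and PP2C-D7 by 0.68 ± 0.11 (adjusted p = 1.46e-07, 1.17e-06 and 9.48e-06, edgeR). In cry1 cry2, 6 rose, among them PP2C-D7 by 1.05 ± 0.11, PP2C-D1 by 0.52 ± 0.06 and PP2C-D2 by 0.30 ± 0.06, and 9 did with library sizes alone. No member of the list fell in a mutant against WT, and median log2 fold changes were -0.04, 0.08 and 0.25 in agb1, hy5 and cry1 cry2.

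Of the plasma membrane H+-ATPases, the proton pumps that these phosphatases switch off, 10 of 11 were tested. In agb1 3 rose and 1 fell, in hy5 2 rose and 3 fell, and in cry1 cry2 2 rose and 5 fell, where 17.2%, 42.9% and 51.4% of all tested loci were called; with library sizes alone these counts were 2 and 2, 4 and 3, and 2 and 2. AHA1 and AHA2 are the main isoforms of the seedling. AHA2 fell in agb1 by 0.60 ± 0.05 (907 ± 25.4 CPM in agb1 and 1370 ± 64.4 CPM in WT, adjusted p = 4.47e-10) and rose in cry1 cry2 by 0.61 ± 0.05 (2093 ± 6.04 CPM in cry1 cry2, adjusted p = 2.06e-11). AHA1 rose in hy5 by 0.62 ± 0.05 and in cry1 cry2 by 0.51 ± 0.05 (adjusted p = 1.14e-10 and 2.66e-09). In agb1 AHA1 averaged 821 ± 40.7 CPM, beside 764 ± 14.8 CPM in WT. In hy5 AHA2 averaged 1484 ± 69.8 CPM, beside 1370 ± 64.4 CPM in WT. AHA3 rose in agb1 by 0.47 ± 0.06 and fell in hy5 by 0.65 ± 0.06 and in cry1 cry2 by 0.85 ± 0.06 (adjusted p at most 3.14e-07). AHA7 fell in hy5 by 1.15 ± 0.10 (adjusted p = 1.98e-10).

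Auxin receptors (TIR1 and AFB proteins) and the activating auxin response factors, which bind upstream of auxin-induced genes, had calls in both directions, beside 17.2%, 42.9% and 51.4% of all tested loci called in agb1, hy5 and cry1 cry2. In agb1 none of the 6 receptors was called by edgeR or DESeq2, or at an unadjusted p under 0.05. In hy5 2 rose and 1 fell, and in cry1 cry2 2 rose and 2 fell, with AFB2 at 0.58 ± 0.06 (adjusted p = 9.78e-10) the largest of those named; with library sizes alone 3 rose and 1 fell. Of 5 activating response factors ARF5 rose in agb1, hy5 and cry1 cry2, by 0.35 ± 0.08, 0.33 ± 0.08 and 0.37 ± 0.08 (adjusted p = 0.00117, 7.22e-04 and 1.49e-04, edgeR), and in hy5 ARF8 rose by 0.30 ± 0.08 while ARF6 fell by 0.39 ± 0.06. ARF5 was the only response factor called in cry1 cry2, where 3 were called with library sizes alone.

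Among 7 PIF and BZR transcription factors, which act downstream of light and brassinosteroid and promote elongation, 3 fell in agb1, 3 rose and 2 fell in hy5, and 4 rose and 3 fell in cry1 cry2, beside the same 17.2%, 42.9% and 51.4% of all tested loci called. PIF4 fell in hy5 by 0.75 ± 0.06 and in cry1 cry2 by 0.56 ± 0.06 (adjusted p = 6.41e-12 and 1.28e-09, edgeR), where the clusters rose. PIF5 fell in agb1 by 0.21 ± 0.06, in hy5 by 0.59 ± 0.06 and in cry1 cry2 by 0.58 ± 0.06 (adjusted p = 0.0103, 2.15e-09 and 1.71e-09). In agb1 PIF1 fell by 0.32 ± 0.08 (adjusted p = 0.00390), and PIF7 by 0.46 ± 0.16 at an adjusted p of 0.0499 that became 0.0556 with RLE scaling. BES1 rose in hy5 by 0.84 ± 0.06 (adjusted p = 4.96e-13), and PIF3 rose in cry1 cry2 by 0.62 ± 0.07 (adjusted p = 3.59e-09).

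Levels were compared with each cluster sum by Pearson r of log2 CPM over the 8 libraries, in 15373 loci averaging 5 CPM or more. SAUR genes were left out of this comparison. The most alike genes named here are therefore those outside the SAUR family. For the SAUR19 sum they were GDH2 (r = 0.996), which encodes a glutamate dehydrogenase, IQD9 (0.992), the LIM domain gene AT4G36860 (0.992), AT3G14560 (0.990) and AT4G22470 of the lipid transfer protein family (0.989). GDH2 averaged 565 ± 15.3 CPM in agb1, 815 ± 24.4 CPM in hy5, 766 ± 6.91 CPM in cry1 cry2 and 662 ± 25.9 CPM in WT. For the SAUR63 sum they were HIPP25 (0.998), the jacalin-type lectin gene JAL33 (0.997), the copper amine oxidase gene AT1G31710 (0.997), AT3G18560 (0.997) and the potassium transporter gene KUP11 (0.997). JAL33 spanned a wider range than the cluster itself, with 198 ± 4.29 CPM in agb1, 964 ± 52.3 CPM in hy5, 679 ± 34.2 CPM in cry1 cry2 and 364 ± 9.35 CPM in WT. With 4 genotype means behind 8 libraries, a high r says that a gene's genotypes stand in the same order with similar spacing.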

How the data were processed

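RNA of whole seedlings was sequenced in 8 libraries. For 48321 transcript models the tables hold raw read counts as deposited and the RPKM that the authors computed, per the file headers; 1 RPKM column carries the header of the reads and was recognised by its values. The length implied by RPKM was the coding length within 4 bases in all models with at least 50 reads. Per the submitters' processing notes, Bowtie2 2.2.2 and TAIR10 were used; the sources used here give no counting tool, strand setting or read length. Names, coordinates and sequences come from RefSeq's TAIR10.1, in which 27420 loci matched by locus tag. AT5G01830, which shares the symbol SAUR21 there but has another product, was left out of the SAUR genes.

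Counts were summed over models per locus. Models with identical coding sequence had equal counts in 2.53% of cases, with a median difference of 3.54% of the pair's sum, as when reads are split between models and not counted at each. Tests across loci used edgeR 4.0.16 under R 4.3.3 (quasi-likelihood F test, TMM factors 0.931 to 1.12, filterByExpr with minimum count 10 and total 15), in 1 fit with a mean per genotype and 4 residual degrees of freedom. The threshold was a Benjamini-Hochberg adjusted p of 0.05 over all tested loci of a comparison. Cluster sums replaced their members as 1 row. Standard errors are the absolute log2 fold change over the square root of F. The procedure was tested on simulated data. Replicates were no duplicates (chi-square per degree of freedom 2.34 to 3.44). Sequences were aligned with Biopython 1.88. Alternatives were RLE scaling, library sizes alone, 2 filters, DESeq2 1.42.0, fits of 2 genotypes, a replicate block, the model with most reads, each library left out, and other cluster sums. The members and gene lists were chosen with earlier results of these data known. Every member is named. Also named are up to 3 genes per pathway list and 4 other SAUR genes per comparison, by lowest p. So are the 5 most alike loci per cluster outside the SAUR genes, array neighbours, nearest relatives outside the members, and markers. Of the markers, RHD2, COBL9 and PYK10 were picked after their values were seen.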

Additional observations from a re-analysis of the deposited data

How the results depend on the processing

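The 11 cluster-sum comparisons that passed the threshold kept direction and call under all 17 alternatives, with the SAUR63 sum of hy5 against cry1 cry2 at 0.27 with library sizes alone. The SAUR19 sum of agb1 against WT, at -0.36, ran from -0.47 to -0.24 with 1 library left out. The SAUR19 sum of hy5 against cry1 cry2, not called at 0.15, turned to -0.0250 with library sizes alone, and passed with no filter (0.156, adjusted p = 0.0336), only the 2 genotypes (0.15, adjusted p = 0.0480) or SAUR22, the locus of most reads, left out of the sum (0.160, adjusted p = 0.0438). Leaving out 1 library gave 0.116 to 0.184.

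Members called in agb1 against WT, 7, numbered 2 with DESeq2 and 2 to 7 with 1 library left out; in cry1 cry2 against WT, 8, they numbered 5 with DESeq2 and 5 to 8; in hy5 against cry1 cry2, 6, they numbered 1 with DESeq2, 1 with library sizes alone and 2 to 6. All loci called in agb1 against WT, 3553, numbered 2059 with DESeq2 and 2351 to 3684 with 1 library left out. Values between hy5 and cry1 cry2 that changed sign were, with library sizes alone, SAUR19 (-0.15), SAUR21 (-0.0114) and SAUR22 (-0.0661); without hy5 replicate 2 or cry1 cry2 replicate 1, SAUR19 (-0.0506 and -0.0633); and without hy5 replicate 1 or cry1 cry2 replicate 1, SAUR23 (0.0462 and 0.0182). None of these passed, and the cause was not tested.

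With library sizes alone all 10 members were called in agb1 and in cry1 cry2 against WT. This scaling moved the median of all loci by 0.18 in cry1 cry2 against WT and -0.25 in agb1 against cry1 cry2. It made 31.4% of calls higher in agb1 against WT (51.0% with TMM), 70.7% in cry1 cry2 against WT (49.8%), 38.4% in agb1 against hy5 (48.5%), 27.5% in agb1 against cry1 cry2 (49.7%) and 28.2% in hy5 against cry1 cry2 (53.0%). Replicate numbers did not pair the samples (correlations -0.0463 to 0.0742); with a replicate block the SAUR19 sum of agb1 against WT was -0.36 and 6 members were called. Members had 54 to 425 reads per library.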
